A study of Mus musculus with 16 samples.

Results

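The collagen and laminin genes are the structural genes of the extracellular matrix, and their RNA was followed here from mouse celiac ganglia to MYCN-driven neuroblastoma tumors. They were chosen by name: every gene whose symbol is that of a collagen alpha chain or of a laminin alpha, beta or gamma chain, with at least 10 counts in at least 2 libraries. This gave 55 genes of the 24411 in the tables, 44 for collagens and 11 for laminins, and no gene of such a name failed the count rule. All 55 also passed the filter on low counts for the tests, which kept 16665 genes. Col2a1, Col9a1 and Col17a1 lay closest to the limit, with at least 10 counts in 7, 8 and 9 of the 16 libraries, respectively. The collagens were divided by the structure they build into 11 fibrillar chains, the 6 basement membrane chains of type IV and 27 other chains.

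The 16 RNA-Seq libraries fall into 5 groups. Celiac ganglia of 2-week-old mice without the MYCN transgene came with wild-type Runx1t1 (n = 4) or labelled as Runx1t1 heterozygotes (n = 3), and those of Th-MYCN homozygous mice likewise with wild-type Runx1t1 (n = 3) or labelled heterozygous (n = 2). The remaining 4 libraries were tumors from Th-MYCN homozygotes whose Runx1t1 was wild-type, at an age not given. In this model human MYCN is driven by the tyrosine hydroxylase promoter in neuroectodermal cells of 129/SvJ mice and the Runx1t1 allele is a germline knock-out (CBB6-Runx1t1tm1Fc/H) crossed with that line. Heterozygous groups are called labelled, since the level of Runx1t1 RNA gave no check of the label: it was at 8.47, 11.5 and 13.1 CPM (lowest, median and highest) in Runx1t1 wild-type transgene-free ganglia and at 13.1, 13.3 and 18.2 CPM in those labelled heterozygous. In MYCN ganglia it was at 23.4, 110.6 and 243 CPM with wild-type Runx1t1 and at 25.3 and 49.9 CPM in those labelled heterozygous. Human MYCN RNA was not measured, because the tables hold mouse genes. The labels do not say whether ganglia of several animals were pooled or whether replicates came from separate litters, so the p-values measure the spread between these libraries, and a ganglion or tumor stands below for 1 library.

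Libraries held from 10692299 to 38618757 counts. The 4 tumors and 6 of the 12 ganglia held more than 20000000, and the 6 ganglia below that include both MYCN ganglia labelled heterozygous. Ddx3y, from which sex was read, was over 1 CPM in tumor replicates 1, 2 and 3. Among ganglia it was over 1 CPM only in replicate 2 (transgene-free, Runx1t1 wild-type), replicate 4 (transgene-free, labelled heterozygous) and replicate 4 (MYCN, Runx1t1 wild-type). Sex so read was thus spread unevenly between tumors and ganglia. 2 libraries stood furthest apart in markers of another tissue. Replicate 2 of the Runx1t1 wild-type transgene-free ganglia had a summed level of lymphocyte and thymocyte markers of 662 TPM, against at most 24.9 TPM in any other library. Tumor replicate 3 had 7678 TPM of liver markers, against 2.67 to 80.3 TPM in the other tumors and 8.08 to 353 TPM in ganglia. Smaller amounts of such markers were found in other ganglia, with up to 381 TPM of fat markers (Runx1t1 wild-type MYCN ganglia, replicate 3) and 198 TPM of skeletal muscle markers (transgene-free, labelled heterozygous, replicate 4). Sympathetic neuron markers such as Th and Dbh were detected in every library, at 5615 to 15990 TPM in ganglia and 1714 to 2933 TPM in tumors. Glia markers lay at 655 to 2413 TPM in transgene-free ganglia and 43.3 to 52.5 TPM in tumors, and fibroblast markers at 428 to 1600 and 36.4 to 82.2 TPM. In bulk RNA, fewer cells of a type and less RNA per cell cannot be told apart.

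Collagens are trimers of alpha chains wound around each other. Fibrillar collagens (types I, II, III, V, XI, XXIV and XXVII) pack into the banded fibrils that give connective tissue its strength, whereas type IV chains form the sheet-like network of basement membranes. Other collagens sit on fibrils, span the cell membrane or form beaded filaments. Laminins are cross-shaped trimers of an alpha, a beta and a gamma chain, and together with type IV collagen they build the basement membrane that surrounds vessels, muscle and the satellite and Schwann cells of peripheral ganglia and nerves. Of the laminin chains, the alpha chain is the part that cell surface receptors bind.

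The sequences shown here belong to, or lie between, genes named in the results. For Col3a1, the member with the highest mean level in transgene-free ganglia and in tumors, Lama2, which had the largest fall, and Col9a1, which had few counts in transgene-free ganglia and more in each tumor, they are the 250 bases before the start given by RefSeq on GRCm38.p6, each 5′ to 3′ on the strand of its gene. Col3a1 lies at chr1:45311288-45311537 on the + strand, Lama2 at chr10:27616943-27617192 on the − strand and Col9a1 at chr1:24177360-24177609 on the + strand. For Col3a1 and Col9a1 the RefSeq start is also the first base of the gene in GENCODE, whereas for Lama2 GENCODE begins 2816 bases further upstream, so that the Lama2 window lies within the GENCODE gene. The last sequence is the 71 bases at chr1:82586850-82586920 (+ strand) between Col4a4 and Col4a3, which point away from each other. Capitals mark TATAAA, and no exon of the GENCODE annotation lies in these windows.
Col3a1: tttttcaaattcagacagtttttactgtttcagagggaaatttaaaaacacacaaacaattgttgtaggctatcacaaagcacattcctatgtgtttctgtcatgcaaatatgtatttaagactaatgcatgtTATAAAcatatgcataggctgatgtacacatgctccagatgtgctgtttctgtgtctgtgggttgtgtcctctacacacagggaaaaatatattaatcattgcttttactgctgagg
Lama2: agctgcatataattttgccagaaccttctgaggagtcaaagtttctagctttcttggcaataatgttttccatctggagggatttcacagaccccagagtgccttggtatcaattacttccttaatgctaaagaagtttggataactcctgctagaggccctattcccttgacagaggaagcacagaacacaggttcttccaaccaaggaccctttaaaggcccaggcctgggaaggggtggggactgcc
Col9a1: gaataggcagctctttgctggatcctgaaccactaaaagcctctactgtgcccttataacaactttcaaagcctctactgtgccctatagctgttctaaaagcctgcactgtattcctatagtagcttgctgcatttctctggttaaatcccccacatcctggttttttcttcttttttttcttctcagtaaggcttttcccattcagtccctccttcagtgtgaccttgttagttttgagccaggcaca
Between Col4a4 and Col4a3: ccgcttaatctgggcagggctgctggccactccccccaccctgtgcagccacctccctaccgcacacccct

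These windows were searched on both strands for the CCAAT box (CCAAT), the TATA box (TATAAA), the GC box (GGGCGG) and the E box (CACGTG), each counted on its own so that matches may overlap. The TATAAA of Col3a1 starts 117 bases before the start, and none of these motifs was found in the other sequences. RefSeq start windows were at hand for 40 of the 55 members, with 44 windows in all. The CCAAT box occurred in 31.8% of them (33.8% of all 32851 windows of that length), the TATA box in 11.4% (12.4%), the GC box in 54.5% (32.7%) and the E box in 0 of 44 (6.02%). A match is a description of the letters only.

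Type IV genes lie in pairs whose members start next to each other and run in opposite directions. On GRCm38 (GENCODE vM21), Col4a1 (chr8:11198423-11312826, − strand) and Col4a2 (chr8:11312805-11449287, + strand) start 21 bases apart and overlap. Col4a4 (chr1:82448423-82586849, − strand) and Col4a3 (chr1:82586921-82722059, + strand) start 72 bases apart, and Col4a6 (X:141165403-141474076, − strand) and Col4a5 (X:141475385-141689234, + strand) 1309 bases apart. Since exons of 13 members overlap those of a gene on the other strand (Lama2 with Gm48084 among them) and exons of 3 overlap a gene on the same strand (Col3a1 with Gm47302), and the use of strand in counting was not stated, some reads of these members cannot be assigned with certainty.

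Per length, collagen and laminin RNA was far lower in tumors. Added over all 55 members it made up 0.354% to 1.17% of all TPM in the 7 transgene-free ganglia and 0.0449% to 0.0998% in the 4 tumors, so that the groups did not overlap. The summed level of the fibrillar chains was 1933, 2994, 7913 and 3838 TPM in Runx1t1 wild-type transgene-free ganglia (replicates 1 to 4), 3675, 1889 and 4947 TPM in those labelled heterozygous (replicates 1, 3 and 4) and 229, 218, 180 and 523 TPM in tumors 1 to 4. The lowest transgene-free ganglion thus held more fibrillar collagen RNA than the highest tumor. Type IV chains summed to 523 to 1262 TPM in transgene-free ganglia and to 114, 218, 82.9 and 182 TPM in tumors. The other collagens had 506 to 1446 TPM and, in tumors, 116, 123, 112 and 179.9 TPM. Laminins had 498 to 1054 TPM and, in tumors, 88.2, 94.4, 74.4 and 113 TPM. In none of the 4 classes did transgene-free ganglia and tumors overlap.

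As a ratio of mean summed TPM, tumors were 13.5-fold lower than transgene-free ganglia in fibrillar chains, 7.43-fold in laminins and 6.18-fold in other collagens (n = 4 and 7). In type IV chains, the last in this order, the means were 149 TPM in tumors and 794 TPM in transgene-free ganglia. TPM are shares of a library, and the median gene was itself lower in tumors by a log2 ratio of −0.52 on that scale. Among libraries over 20000000 counts the folds were 16.2, 8.29, 6.94 and 5.95, in the same order. The composition of the collagen RNA differed as well. Fibrillar chains made up 62.3 to 74.5% of collagen TPM in the 12 ganglia and 49.8, 39.1, 47.99 and 59.1% in tumors 1 to 4. Type IV chains made up 11.9 to 20.9% in ganglia and 24.8, 38.9, 22.1 and 20.6% in tumors. The shares of fibrillar chains did not overlap between ganglia and tumors, and those of type IV chains overlapped only through tumor replicate 4 and 1 ganglion (labelled heterozygous, transgene-free, replicate 3). Of the MYCN ganglia, replicate 1 with wild-type Runx1t1 was the lowest of the 12 ganglia in all 4 classes, at 927 TPM of fibrillar chains and 268 TPM of laminins, and the other 4 MYCN ganglia lay within the range of the transgene-free ganglia. That library also had the lowest sums of fibroblast and endothelium markers among the ganglia, at 184 and 56.8 TPM. It was the lowest ganglion in glia markers (554 TPM) and in pericyte and smooth muscle markers (45.2 TPM) as well. Its sum of cycling-cell markers, 792 TPM, was the highest of the ganglia. The part of these markers was not tested. Of its counts, 8.8% were from Rn45s, the precursor of ribosomal RNA. Rn45s took 2.15 to 5.64% of counts in the other 11 ganglia and 8.57 to 12.8% in tumors. With Rn45s taken out and TPM rescaled, the folds of tumors below transgene-free ganglia were 13.2, 7.28, 6.05 and 5.21, in the order given above.

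**Figure D1:**
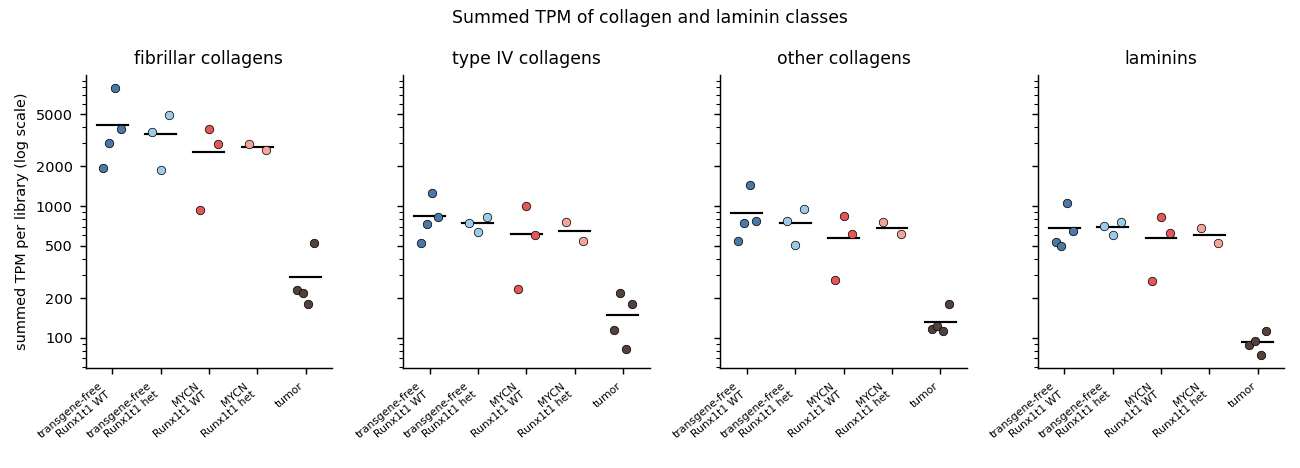
Summed TPM (log axis) of fibrillar collagens, type IV collagens, other collagens and laminins in each of the 5 groups. Each point is a library and each line a group mean, and the 4 tumors lie below every transgene-free ganglion in each panel, for example at 180 to 523 TPM of fibrillar chains against 1889 or more.

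Gene by gene, 36 of the 55 members were lower and 2 were higher in tumors than in transgene-free ganglia, and 17 did not pass the threshold (adjusted p under 0.05, edgeR). Over all genes tested, 30.9% were lower and 30.6% higher. The median log2 fold change was −1.97 over the members and −0.06 over all genes. By class, 8 of 11 fibrillar chains were lower (median −2.81), 4 of 6 type IV chains (−1.95), 16 of 27 other collagens (−1.91) and 8 of 11 laminin chains (−2.20). Of the 2 members that were higher, Col9a1 is an other collagen and Lama1 a laminin. The low-count filter asks for at least 2 libraries with 0.368 CPM or more, which Col9a1 reached in 0 transgene-free ganglia and Col6a4, called lower, in 1 tumor. These 2 members could be tested only because of the groups in which they are high, and nothing is read from their calls. Without the 2 libraries highest in lymphocyte and liver markers, 37 members passed, 36 of them also with all libraries, and among libraries over 20000000 counts 36 passed.

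**Figure D2:**
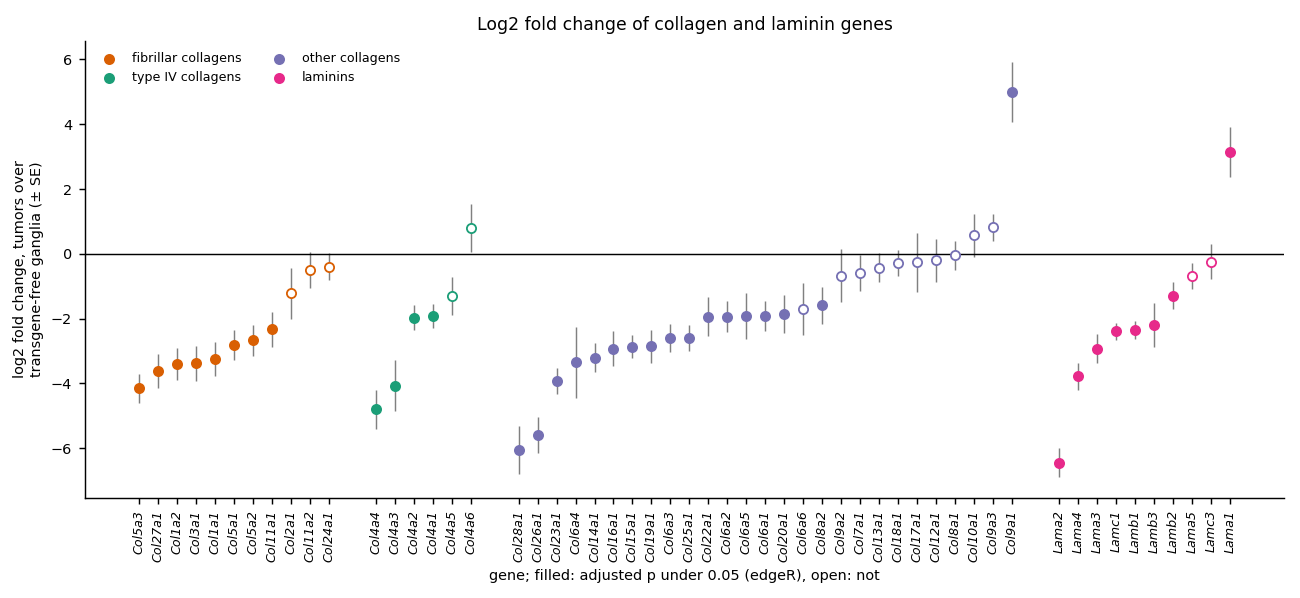
Log2 fold change of 54 members in tumors over transgene-free ganglia, by class, with bars for the standard error. Filled points passed the threshold (adjusted p under 0.05), and Lama2 at −6.44 and Col9a1 at 5.01 mark the ends.

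The fibrillar chains of types I and III lead the list of levels in ganglia. In tumors Col4a1, at a mean of 95.4 TPM, lay above both chains of type I. Per length, Col3a1 was at 1656 ± 952 TPM (SD, n = 7) in transgene-free ganglia and 115 ± 61.99 TPM (SD, n = 4) in tumors, the highest mean of the members in both, although by the median of tumors Col4a1 (94.4 TPM) was above Col3a1 (91.1 TPM). Col1a1 was at 1049.7 ± 593 TPM (SD, n = 7) and 79.7 ± 49.2 TPM (SD, n = 4), and Col1a2 at 780.2 ± 385 TPM (SD, n = 7) and 53.4 ± 32.8 TPM (SD, n = 4). In normalised counts, the scale of the tests, Col3a1 (chain of type III, the fibril of distensible tissue) had 1746, 2929, 7904 and 3504 CPM in Runx1t1 wild-type transgene-free ganglia and 3519, 1833 and 4661 CPM in those labelled heterozygous. It had 904, 3928 and 2859.7 CPM in Runx1t1 wild-type MYCN ganglia and 2563 and 2472 CPM in those labelled heterozygous. Tumors 1 to 4 had 276, 286, 209 and 636 CPM. All 4 tumors lay below all 12 ganglia, and the fall against transgene-free ganglia was 10.4-fold (log2 fold change −3.38, SE 0.55, adjusted p = 0.000112).

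Col1a1 and Col1a2 encode both chains of type I collagen, the main fibril of skin, tendon and bone. Col1a1 had 720.3, 1886 and 4034 CPM (lowest, median and highest) in transgene-free ganglia and 156, 131, 134 and 394 CPM in tumors (log2 fold change −3.24, SE 0.54, adjusted p = 0.000135), and Col1a2 had 797, 1555 and 3127 CPM (lowest, median and highest) and 118, 119, 76.4 and 288 CPM (log2 fold change −3.40, SE 0.50, adjusted p = 5.37e-05). Tumor replicate 4 was the highest tumor in Col1a1, Col1a2 and Col3a1 and still below each transgene-free ganglion. The ratio of Col1a1 to Col1a2 TPM was 0.993 to 1.45 in transgene-free ganglia and 1.21 to 1.92 in tumors.

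Type V collagen lies in the core of type I fibrils and has 3 genes. Col5a1 fell 7.005-fold (log2 fold change −2.81, SE 0.46, adjusted p = 0.00012) and Col5a2 fell 6.36-fold (log2 fold change −2.67, SE 0.47, adjusted p = 0.000226). Col5a3, a chain known from Schwann cells, had 200.1, 97.5, 344 and 175 CPM in Runx1t1 wild-type transgene-free ganglia, 237, 233 and 297 CPM in those labelled heterozygous and 16.2, 10.6, 9.85 and 14.7 CPM in tumors. It fell 17.8-fold (log2 fold change −4.16, SE 0.44, adjusted p = 3.81e-06), the largest fall of a fibrillar chain. Col27a1 and Col11a1 also fell. The other 3 fibrillar chains, Col2a1, Col11a2 and Col24a1, did not pass, and each had at most 19.3 CPM in any transgene-free ganglion or tumor. Fibroblast markers moved alongside, with 9 of 10 lower in tumors, where 30.9% of all genes were lower. They summed to 428 to 1600 TPM in transgene-free ganglia and 36.4 to 82.2 TPM in tumors, none of them at 0 in a whole group. Their part in the fall of the fibrillar chains was not tested.

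Among the basement membrane collagens that fell, Col4a1 and Col4a2 had the smallest fold changes and Col4a3 and Col4a4 the largest. Col4a1 and Col4a2, the chains of the network found in nearly all basement membranes, were at 498 ± 142 TPM (SD, n = 7) and 272 ± 79.7 TPM (SD, n = 7) in transgene-free ganglia and 95.4 ± 37.6 TPM (SD, n = 4) and 50.6 ± 22.9 TPM (SD, n = 4) in tumors. By the mean, Col4a1 was the fourth among members in transgene-free ganglia and the second in tumors. It had 909, 1328, 2103 and 1345 CPM in Runx1t1 wild-type transgene-free ganglia, 1274, 1097 and 1369 CPM in those labelled heterozygous and 266, 510.4, 195 and 426 CPM in tumors. MYCN ganglia had 462, 1711 and 1020.2 CPM with wild-type Runx1t1 and 1234 and 898 CPM when labelled heterozygous. Tumors lay below every transgene-free ganglion, whereas tumor replicate 2 lay above replicate 1 of the Runx1t1 wild-type MYCN ganglia. Col4a1 was 3.81-fold lower in tumors than in transgene-free ganglia (log2 fold change −1.93, SE 0.37, adjusted p = 0.000437) and Col4a2 3.91-fold lower (log2 fold change −1.97, SE 0.39, adjusted p = 0.000533). The ratio of their TPM stayed between 1.69 and 1.92 in transgene-free ganglia and between 1.77 and 2.14 in tumors.

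Col4a3, Col4a4 and Col4a5 form a second network, best known from the kidney glomerulus. Col4a4 had 22.3, 24.97, 76.9 and 51.1 CPM in Runx1t1 wild-type transgene-free ganglia, 36.7, 28.3 and 46.3 CPM in those labelled heterozygous and 3.03, 1.33, 0.4996 and 0.955 CPM in tumors. It was 27.9-fold lower in tumors (log2 fold change −4.80, SE 0.61, adjusted p = 1.59e-05). Col4a3, whose first base lies 72 bases away, had 7.804, 11.1 and 31.8 CPM (lowest, median and highest) in transgene-free ganglia and 2.21, 0.593, 0.0357 and 0.449 CPM in tumors (log2 fold change −4.07, SE 0.79, adjusted p = 0.000492). Tumor replicate 1 was the highest tumor in both genes, and without it the log2 fold changes were −5.42 for Col4a4 and −5.21 for Col4a3. Col4a5 had 5.92, 17.5 and 32.9 CPM (lowest, median and highest) in transgene-free ganglia and 4.04, 7.400, 1.75 and 13.2 CPM in tumors, and it did not pass (log2 fold change −1.30, SE 0.60, adjusted p = 0.0733). Without tumor replicate 4 it did pass, at −1.88 (adjusted p = 0.0241), as it did without replicate 1 of the Runx1t1 wild-type transgene-free ganglia (−1.43, adjusted p = 0.0441). Col4a6 was low throughout, at 0.3198 to 5.01 CPM in transgene-free ganglia and 1.51, 2.17, 1.53 and 6.29 CPM in tumors (log2 fold change 0.79, 95% interval −0.66 to 2.25, adjusted p = 0.37). Of all genes, 30.9% were lower in this comparison. Endothelium markers were lower in 7 of 10 cases, with summed levels of 93.6 to 749.8 TPM in transgene-free ganglia and 50.3 to 111 TPM in tumors. Of the pericyte and smooth muscle markers 3 of 10 were lower, a share near that of all genes, at 104 to 522 and 44.3 to 210 TPM. Neither list had a marker at 0 in a whole group, and their part in the type IV values was not tested.

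The other collagens fall into subgroups. Counting Col6a4 and Col9a1, from whose calls nothing is read, 5 of 6 beaded-filament chains of type VI were lower in tumors, 5 of 9 fibril-associated chains were lower and 1 higher, 2 of 4 transmembrane chains, 1 of 2 chains of types XV and XVIII, 1 of 3 network chains of types VIII and X and both chains of types XXVI and XXVIII were lower, and the type VII chain did not pass. Set beside the 30.9% of all genes that were lower, subgroups of 1 to 4 chains are too small to read a share from. Col28a1, a collagen known from the nodes of Ranvier of peripheral nerve, had 168, 66.9, 253 and 173 CPM in Runx1t1 wild-type transgene-free ganglia, 189.8, 157 and 198 CPM in those labelled heterozygous and 2.17, 5.39, 0.143 and 2.64 CPM in tumors. The lowest of the 12 ganglia had 65.02 CPM and the highest tumor 5.39 CPM. The fall was 66.2-fold (log2 fold change −6.05, SE 0.74, adjusted p = 1.14e-05), and −6.70 on the log2 scale without tumor replicate 2. Col26a1 had 25.7, 19.1, 26.8 and 16.5 CPM, 22.02, 20.7 and 28.3 CPM and 0.544, 0.169, 0.107 and 1.04 CPM in the same groups (log2 fold change −5.59, SE 0.55, adjusted p = 2.38e-06). Without tumor replicate 4 its log2 fold change was −6.39. Col23a1, a transmembrane collagen, had 10.99 to 23.2 CPM in transgene-free ganglia and 1.44, 1.53, 0.642 and 1.01 CPM in tumors (log2 fold change −3.93, SE 0.40, adjusted p = 3.11e-06).

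Type VI chains build beaded filaments near cells, from the products of Col6a1, Col6a2 and most often Col6a3. Col6a3 had 122, 259 and 507 CPM (lowest, median and highest) in transgene-free ganglia and 28.9, 55.1, 26.02 and 69.4 CPM in tumors (log2 fold change −2.60, SE 0.44, adjusted p = 0.000163). Col6a1 had 63.8, 173 and 356 CPM (lowest, median and highest) and 44.7, 42.6, 22.8 and 79.04 CPM (log2 fold change −1.91, SE 0.47, adjusted p = 0.00271), and Col6a2 had 71.7, 166 and 346 CPM (lowest, median and highest) and 35.4, 50.1, 19.5 and 75.9 CPM (log2 fold change −1.94, SE 0.48, adjusted p = 0.00329). Groups did not overlap for Col6a3, and for the other two tumor replicate 4 reached above the lowest transgene-free ganglion. Types XV and XVIII are basement membrane proteoglycans that share a collagen core. Col15a1 had 215, 274 and 539.8 CPM (lowest, median and highest) in transgene-free ganglia and 46.4, 36.5, 26.1 and 57.3 CPM in tumors, a 7.31-fold fall (log2 fold change −2.87, SE 0.35, adjusted p = 1.19e-05). Col18a1, the source of endostatin, had 57.2, 84.4 and 167 CPM (lowest, median and highest) and 30.7, 53.3, 169 and 47.5 CPM, and it did not pass (log2 fold change −0.29, SE 0.40, adjusted p = 0.556). Its level in tumor replicate 3, the library with liver RNA, was the highest of the 4 tumors, and without that library the log2 fold change was −1.06 (adjusted p = 0.0092).

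Type IX collagen coats cartilage fibrils and has 3 genes. Col9a1 had 0.2399, 0, 0.317 and 0.118 CPM in Runx1t1 wild-type transgene-free ganglia, 0, 0.145 and 0 CPM in those labelled heterozygous and 2.91, 2.796, 1.28 and 6.65 CPM in tumors. These are 0 to 9 counts in transgene-free ganglia and 36 to 237 in tumors, and each tumor exceeded each transgene-free ganglion. The fitted log2 fold change was 5.01 (SE 0.93), given without a p since the gene passed the low-count filter only through tumors and MYCN ganglia. It was 6.79 without replicate 3 of the ganglia labelled heterozygous, which holds 5 counts of Col9a1 and is the only one of its group above 0, and 5.82 with a term for sex. MYCN ganglia had 3.39, 0.458 and 1.32 CPM with wild-type Runx1t1 and 0.0704 and 0.849 CPM when labelled heterozygous. Per length, the mean level in tumors was 2.06 ± 1.37 TPM (SD, n = 4), and in transgene-free ganglia Col9a1 was the lowest of the 55 members. Col9a2 and Col9a3, its partners in the trimer, did not pass. Col9a2 had 3.47 to 12.6 CPM in transgene-free ganglia and 15.1, 0.113, 1.25 and 1.68 CPM in tumors (log2 fold change −0.68, SE 0.81, adjusted p = 0.489), and without tumor replicate 1 it was lower in tumors (−2.83, adjusted p = 0.00269). Col9a3 had 1.47 to 4.08 CPM and 5.13, 1.497, 3.93 and 11.3 CPM (log2 fold change 0.82, SE 0.43, adjusted p = 0.11), and without tumor replicate 2 it was higher in tumors (1.13, adjusted p = 0.0169). Of the 6 cartilage markers, 3 were tested and all 3 were lower in tumors, where 30.9% of all genes were lower.

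**Figure D3:**
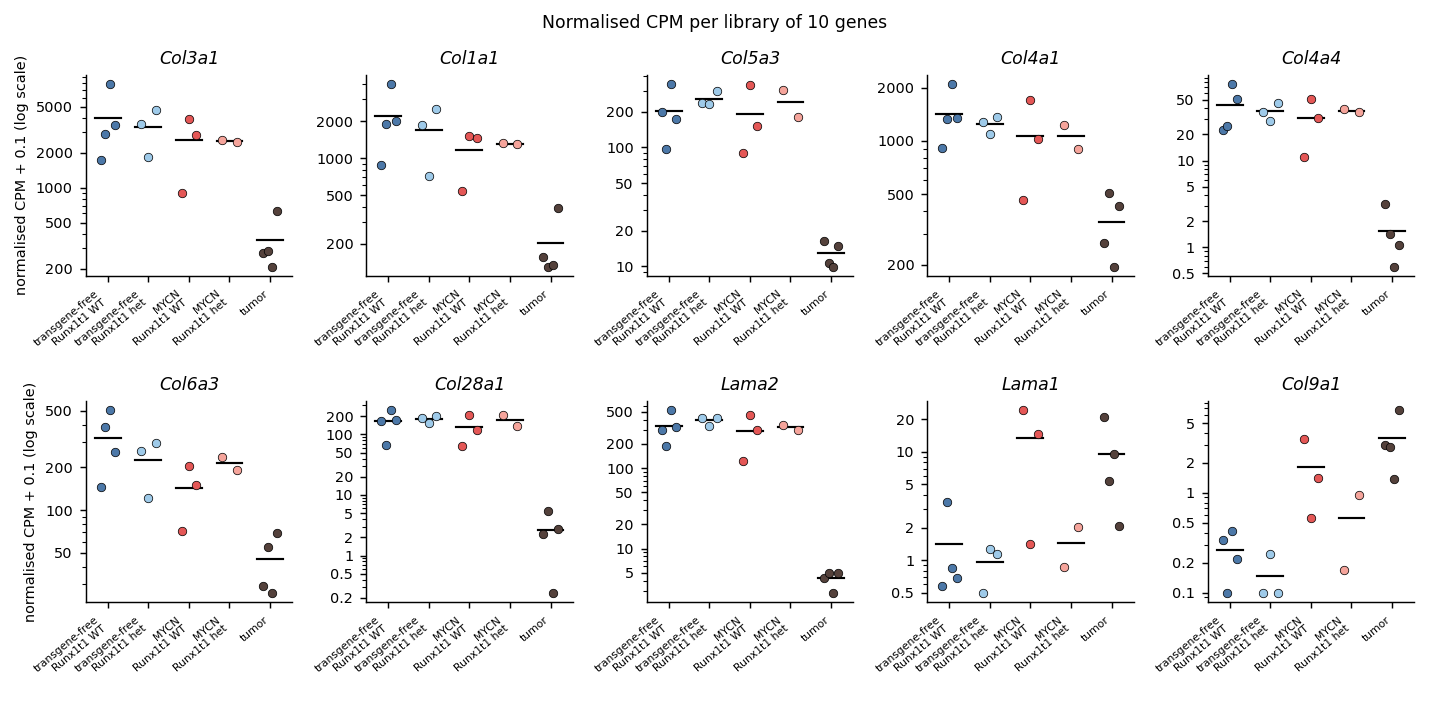
Normalised CPM plus 0.1 (log axis) of 10 members in each library of the 5 groups, with a line at each group mean. Tumors lie below all transgene-free ganglia for Col3a1, Col1a1, Col5a3, Col4a1, Col4a4, Col6a3, Col28a1 and Lama2, above them all for Col9a1, and overlap with them for Lama1.

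The laminin alpha chains differed in their shares as well as in their amounts. Lama2, the alpha chain of muscle and Schwann cell basement membranes, had 298, 187, 529 and 326 CPM in Runx1t1 wild-type transgene-free ganglia and 421, 335 and 419.6 CPM in those labelled heterozygous. MYCN ganglia had 121, 453 and 295 CPM with wild-type Runx1t1 and 348 and 299 CPM when labelled heterozygous. Tumors had 4.15, 4.89, 2.71 and 4.86 CPM. The highest tumor and the lowest of the 12 ganglia were thus far apart, at 4.89 and 121 CPM, and the 87.01-fold fall was the largest of the 55 members (log2 fold change −6.44, SE 0.44, adjusted p = 3.18e-07). Lama4, an alpha chain of vessels and peripheral nerve, had 208, 248 and 415 CPM (lowest, median and highest) in transgene-free ganglia and 15.9, 26.1, 9.56 and 25.97 CPM in tumors, 13.7-fold lower (log2 fold change −3.78, SE 0.41, adjusted p = 4.57e-06). Lama3, an epithelial chain, had 16.2 to 28.6 CPM and 1.204, 6.52, 2.21 and 1.21 CPM (log2 fold change −2.92, SE 0.45, adjusted p = 6.78e-05), and −3.78 without tumor replicate 2.

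The other 2 alpha chains behaved otherwise. Lama5, widespread in adult basement membranes, had 23.7, 46.9 and 119 CPM (lowest, median and highest) in transgene-free ganglia and 54.3, 33.9, 15.6 and 25.5 CPM in tumors, and the groups overlapped (log2 fold change −0.69, SE 0.40, adjusted p = 0.147, 95% interval −1.47 to 0.09). It passed as lower in tumors without replicate 1 of the Runx1t1 wild-type transgene-free ganglia (−0.82, adjusted p = 0.0437) and without tumor replicate 1 (−1.06, adjusted p = 0.0435). Lama1, the chain of early embryonic basement membranes, was the laminin that rose. It had 0.4797, 3.38, 0.741 and 0.591 CPM in Runx1t1 wild-type transgene-free ganglia, 0.4004, 1.16 and 1.04 CPM in those labelled heterozygous and 20.97, 5.25, 9.53 and 1.97 CPM in tumors. Tumor replicate 4 lay below replicate 2 of the Runx1t1 wild-type transgene-free ganglia, the library with lymphocyte RNA, and the other 3 tumors lay above all 7. The rise was 8.87-fold (log2 fold change 3.15, SE 0.77, adjusted p = 0.0028), and 2.39 on the log2 scale without tumor replicate 1 (adjusted p = 0.0164) and 2.35 with a term for sex (adjusted p = 0.0221).

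Per length, Lama4 took the largest and Lama2 the next largest share of the alpha chains in each of the 12 ganglia. Lama2 made up 28.4 to 45.98% and Lama4 48.1 to 51.6% of alpha chain TPM in transgene-free ganglia. In tumors 1 to 4, Lama2 made up 4.21, 5.55, 6.24 and 6.74%, Lama4 26.2, 48.5, 35.97 and 58.7%, Lama5 46.7, 32.9, 30.6 and 30.1% and Lama1 21.7, 6.12, 22.4 and 2.801%. Transgene-free ganglia had 2.94 to 15.4% of Lama5 and 0.0419 to 0.523% of Lama1. Lama5 and Lama1 thus took larger shares in each tumor than in any transgene-free ganglion. Runx1t1 wild-type MYCN ganglia had 7.43, 0.1298 and 2.08% of Lama1, in replicates 1, 3 and 4.

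**Figure D4:**
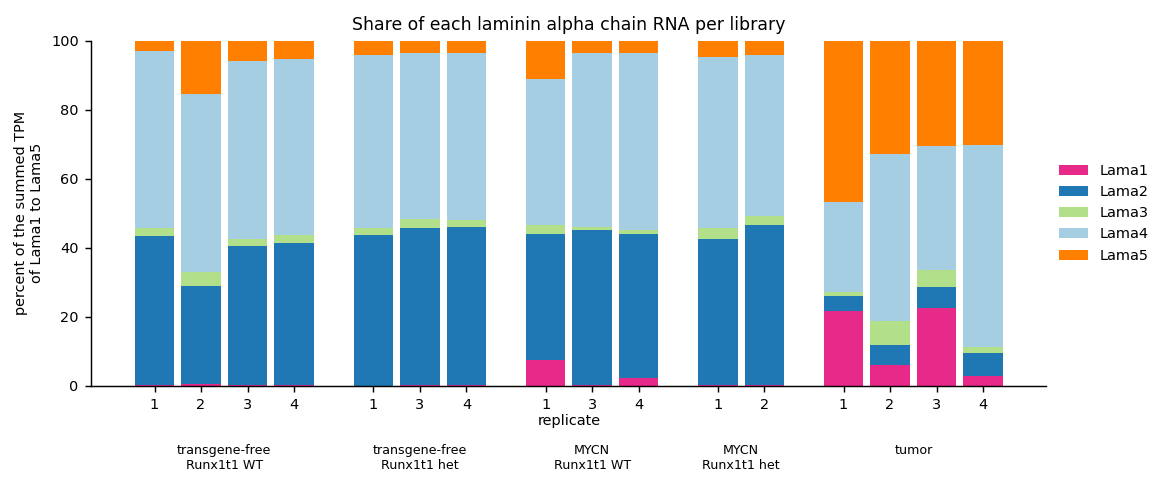
Percent of summed laminin alpha chain TPM taken by Lama1 to Lama5 in each library (stacked bars, 0 to 100). Lama2 and Lama4 take most of each bar in the ganglia, whereas in tumors Lama2 takes 4.21% to 6.74% and Lama5 takes 30.1% to 46.7%.

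The common beta and gamma chains had smaller fold changes than Lama2 and Lama4. Lamc1, the gamma chain of most laminins, had 566, 641 and 1016 CPM (lowest, median and highest) in transgene-free ganglia and 154, 147, 92.3 and 141 CPM in tumors, 5.24-fold lower (log2 fold change −2.39, SE 0.26, adjusted p = 4.86e-06). Lamb1, its usual beta partner, had 278, 413 and 609.9 CPM (lowest, median and highest) and 77.6, 70.6, 65.8 and 105 CPM (log2 fold change −2.35, SE 0.29, adjusted p = 1.09e-05). Lamb2, the beta chain of synapses and muscle, had 80.3, 148 and 294 CPM (lowest, median and highest) and 24.7, 67.2, 62.7 and 94.6 CPM, with 1 tumor above the lowest transgene-free ganglia (log2 fold change −1.29, SE 0.40, adjusted p = 0.0132). Lamb3, an epithelial chain, was also lower, and Lamc3 did not pass. The alpha chains together reached 0.892 to 1.07 times the TPM of Lamc1 in transgene-free ganglia and 0.502, 0.465, 0.366 and 0.399 times in tumors 1 to 4. Tumors and transgene-free ganglia did not overlap in that ratio. Of all genes, 30.9% were lower in tumors than in transgene-free ganglia. Glia markers, of which all 10 were lower in tumors and none was at 0 in a whole group, moved with Lama2, Lama4, Col5a3 and Col28a1. They summed to 554 to 2293 TPM in Runx1t1 wild-type MYCN ganglia and to 1143 to 1651 TPM in those labelled heterozygous, besides the values given above, and their part in these results was not tested.

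Genes that make, bind or cut these chains were counted in the same comparison, in which 30.9% of all genes were lower and 30.6% higher. Of 16 folding and modifying enzymes tested, 10 were lower (P4ha3 included) and 1 higher. P4ha3, a prolyl hydroxylase subunit, went from 6.07 to 11.4 CPM in transgene-free ganglia to 0.311, 0.0847, 0.178 and 1.57 CPM in tumors (fitted log2 fold change −4.12, SE 0.65, and −5.63 without tumor replicate 4). Colgalt1, which adds galactose to hydroxylysine, was at 30.4 to 77.1 and 59.6, 99.3, 72.2 and 76.8 CPM (log2 fold change 0.63, SE 0.20, adjusted p = 0.0147), and it did not pass without tumor replicate 2 (0.49, adjusted p = 0.0674). Of 14 procollagen proteinases and cross-linking enzymes, 10 were lower (Tll2 included) and 0 higher. Tll2, a proteinase of the family that trims procollagen, had 21.1 to 63.6 CPM in transgene-free ganglia and 0.427, 0.0565, 0 and 0 CPM in tumors (fitted log2 fold change −8.67, SE 0.82, and −10.85 without tumor replicate 1). P4ha3 and Tll2 passed the low-count filter only through ganglia, with 1 tumor each at its minimum, so no p is given for them and nothing is read from their calls.

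Of 10 partners of the basement membrane, 7 were lower and 1 higher. Egflam, which binds dystroglycan, had 10.8 to 41.7 CPM in transgene-free ganglia and 1.94, 0.989, 0.285 and 0.505 CPM in tumors (log2 fold change −4.60, SE 0.62, adjusted p = 2.57e-05, and −5.22 without tumor replicate 1). Smoc1, a secreted calcium-binding protein of basement membranes, rose from 5.203 to 19.3 CPM to 27.8, 108, 79.4 and 97.4 CPM (log2 fold change 2.77, SE 0.37, adjusted p = 2.26e-05). Proteoglycans that sit on fibrils were lower in 7 of 8 cases. Lumican (Lum) had 18.6 to 83.3 CPM and 1.16, 2.82, 1.53 and 2.53 CPM (log2 fold change −4.56, SE 0.46, adjusted p = 3.06e-06).

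Receptors of collagen and laminin were lower in 12 of 13 cases, and none was higher. Itga2, the alpha chain of a collagen-binding integrin, had 14.7 to 29.5 CPM in transgene-free ganglia and 0.311, 1.84, 0.214 and 0.7301 CPM in tumors (log2 fold change −4.78, SE 0.57, adjusted p = 9.2e-06, and −5.66 without tumor replicate 2). Of 9 collagen-degrading proteases and their inhibitors, 6 were lower and 2 higher (Mmp13 included). The gelatinase Mmp2 had 162 to 505 and 34.2, 13.2, 8.49 and 35.9 CPM (log2 fold change −4.02, SE 0.50, adjusted p = 1.31e-05), whereas the collagenase Mmp13 had 0 to 0.134 and 0.427, 2.54, 0.678 and 2.98 CPM (fitted log2 fold change 5.80, SE 1.10). Mmp13 passed the low-count filter only through tumors, so no p is given and nothing is read from its call, and without replicate 4 of the ganglia labelled heterozygous its log2 fold change was 7.49 and without replicate 3 of those with wild-type Runx1t1 6.62.

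Tumors were also compared with the ganglia that carry MYCN. These comparisons share the 4 tumors with each other and with the one above, so their values are given side by side only. Against Runx1t1 wild-type MYCN ganglia, 27 members were lower in tumors and 0 higher, where 20.5% of all genes were lower and 14% higher. Without adjustment 32 of the 55 members had p under 0.05, as had 7511 of all 16665 genes. DESeq2 called 30 members lower and 0 higher. Against MYCN ganglia labelled heterozygous, 27 members were again lower and 0 higher, where 23.5% of all genes were lower and 22% higher. There, 30 of the 55 members had an unadjusted p under 0.05, a share near that of all genes (8779 of 16665). DESeq2 called 29 members lower and 2 higher (Lama1 and Col9a1), and nothing is read from the call of Col9a1, for the limit from the low-count filter given above. The share of all genes called by DESeq2 is not given, so its counts of members are not read against a background. The median log2 fold change of the members was −1.57 and −1.60, and that of all genes −0.01 and 0.07. In each comparison 8 fibrillar chains, 4 type IV chains, 10 other collagens and 5 laminin chains were lower.

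Since the tumors are the same, genes that are lowest in them have large fold changes in each of these comparisons. Lama2 had a log2 fold change of −6.12 against Runx1t1 wild-type MYCN ganglia (SE 0.45, adjusted p = 1.62e-06) and −6.28 against those labelled heterozygous (SE 0.47, adjusted p = 8.62e-07). In the same order, Col28a1 had −5.65 and −6.06, Col26a1 −5.65 and −5.16, Col4a4 −4.42 and −4.69, and Col5a3 −3.91 and −4.25, all with adjusted p of at most 0.000206. Leaving out a tumor takes the same library from each comparison. Without tumor replicate 1 Col4a4 had −5.04 and −5.32, without tumor replicate 2 Col28a1 had −6.29 and −6.71, and without tumor replicate 4 Col26a1 had −6.45 and −5.97. Without replicate 3 of the Runx1t1 wild-type MYCN ganglia, Col5a3 had −3.23. With a term for library depth, the values against those labelled heterozygous, both below 20000000 counts, were −7.00 for Lama2, −6.74 for Col28a1, −5.81 for Col4a4 and −5.02 for Col5a3. Lama1, which rose against transgene-free ganglia, did not pass by edgeR here: it had −0.49 (adjusted p = 0.704) and 2.80 (adjusted p = 0.0782). Col9a1 had fitted values of 1.01 and 2.89.

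Between the groups of ganglia no member passed the threshold. Runx1t1 wild-type MYCN ganglia differed from Runx1t1 wild-type transgene-free ganglia in 0 members by edgeR, where 0.834% of all genes were higher and 0.102% lower. At an unadjusted p under 0.05 were 6 of the 55 members and 3302 of all 16665 genes. DESeq2 called 2 members (Lama1 and Col9a1, both higher), again given without its share of all genes. The log2 fold change of 46 of the 55 members was below 0, with a median of −0.47, against 8916 of all 16665 genes and a median of −0.04. Replicate 1 of these MYCN ganglia had the lowest sum in each class, with 927 TPM of fibrillar chains against 3822 and 2981 TPM in replicates 3 and 4. Markers of stromal cells were lower alongside, with median log2 fold changes of −1.19 for fibroblast, −1.18 for endothelium and −1.46 for pericyte and smooth muscle markers, none of the 10 in each list passing the threshold, and their part was not tested. Lama1 had 24.2, 1.298 and 14.4 CPM in the MYCN ganglia, replicates 1, 3 and 4, and 0.4797, 3.38, 0.741 and 0.591 CPM in the transgene-free ganglia (log2 fold change 3.39, SE 0.98, adjusted p = 0.0969). Replicate 1 of the MYCN ganglia was above all tumors and replicate 3 below replicate 2 of the transgene-free ganglia. Without that transgene-free library Lama1 passed (4.43, adjusted p = 0.036), as it did without replicate 3 of the MYCN ganglia (3.93, adjusted p = 0.0146). Col9a1 had 3.39, 0.458 and 1.32 CPM in these MYCN ganglia, each above all 4 transgene-free ganglia, and an adjusted p of 0.141 (log2 fold change 3.24), and the limit from the low-count filter given above holds for it here too. Col6a4 had −4.05 (adjusted p = 0.129), a value that rests on the 39.97 CPM of replicate 2 of the transgene-free ganglia. Cycling-cell markers summed to 792, 51.8 and 379.8 TPM in MYCN ganglia 1, 3 and 4, the same order as Lama1 and Col9a1 in these libraries. They summed to 23.1 to 173 TPM in the transgene-free ganglia and to 920.4 to 1071 TPM in tumors. Among tumors the order of these sums was neither that of Lama1 nor that of Col9a1, and the part of these markers was not tested.

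The remaining comparisons asked whether MYCN acts in ganglia labelled Runx1t1 heterozygous and whether the Runx1t1 label matters. Between MYCN and transgene-free ganglia labelled heterozygous, 0 members passed by edgeR, none at an unadjusted p under 0.05 and none by DESeq2. Of all 16665 genes 0% passed, and 242 had an unadjusted p under 0.05. The smallest p belonged to Col9a1 (2.88), Col19a1 (−1.20) and Col9a3 (−0.63), each with an adjusted p of 1, and Col9a1 could be tested only through tumors and MYCN ganglia. Between MYCN ganglia labelled heterozygous and those with wild-type Runx1t1, 0 members passed by edgeR or DESeq2, and 0.012% of all genes were higher and 0% lower. Without adjustment, 2 of the 55 members and 2094 of all 16665 genes had p under 0.05 by edgeR. Lama1 had 0.774 and 1.93 CPM in those labelled heterozygous (log2 fold change −3.29, SE 1.29, adjusted p = 0.358). Lama3 had 27.7 and 19.2 CPM against 9.81, 11.1 and 8.03 CPM with wild-type Runx1t1 (log2 fold change 1.28, SE 0.56, adjusted p = 0.383). Col9a3 had 2.53 and 1.698 CPM against 5.41, 5.15 and 6.59 CPM (log2 fold change −1.43, SE 0.67, adjusted p = 0.398).

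Transgene-free ganglia labelled heterozygous and with wild-type Runx1t1 differed in 0 members by edgeR or DESeq2 (0% of all genes called). An unadjusted p under 0.05 was found for 2 of the 55 members, a share near that of all genes (687 of 16665). Col6a4 (−3.38), Col12a1 (−2.16) and Col24a1 (1.05) had the smallest p, with adjusted p of 0.993 each. For Col6a4 and Col12a1 a single library was high: replicate 2 with wild-type Runx1t1 had 39.97 and 198 CPM, while the other 3 of its group had at most 1.76 and 28.5 CPM. The interaction of MYCN with the Runx1t1 label, tested as a difference between the effects, gave 0 members by edgeR or DESeq2 (0% of all genes called). Here 3 of the 55 members had an unadjusted p under 0.05, a share near that of all genes (937 of 16665). Col6a4 (4.76), Col24a1 (−1.79) and Lama3 (1.60) had the smallest p, with adjusted p of 0.845.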

How the data were processed

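Whole transcriptome libraries (SMARTer Stranded Total RNA-Seq v2, paired 100-base reads on a NovaSeq) were made from total RNA of celiac ganglia (12 libraries) and tumors (4 libraries), although the labels call the molecule polyA RNA. The cell type label reads Neuroblastoma for ganglia too, so the tissue was taken from the sample titles. Per the study's methods, STAR aligned the reads to mm10, SAMtools sorted them and RSEM counted them, and the authors deposited RSEM expected counts, without normalisation, and TPM, scaled by RSEM to a fixed sum per library.

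Expected counts were rounded and fitted in R 4.3.3 with edgeR 4.0.16 (filterByExpr by group, TMM, quasi-likelihood test, all 16 libraries in 1 fit). P-values were adjusted by Benjamini-Hochberg over 16665 genes, with a threshold of 0.05. Each SE by edgeR was derived from the log2 fold change and its F statistic. The 95% intervals take that SE with the normal distribution, so they are narrower than the test itself would give. CPM are TMM-normalised. TPM were used for levels between genes and for sums, without a test. limma 3.58.1 was loaded by edgeR, and tables and figures were made with Python 3.11.15 and pandas 2.3.3. The scripts were tested on simulated data. Column headers give the Runx1t1 genotype as Hom or Het, and Hom was read as wild type, since sample labels name no homozygous knock-out. Positions are from GENCODE vM21 and start windows from RefSeq.

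Named with values were the 3 members of highest mean TPM per class, up to 8 members per direction with the largest fold change in tumors over transgene-free ganglia (up to 5 in other comparisons, or the 3 with the smallest p where none passed) among those whose groups did not overlap and whose mean TPM was 1 or more, a fixed set of type I, III, IV and VI collagen and laminin chains, partners in a trimer, and the gene with the largest fold per direction of each pathway list. Col9a2, Col9a3 and Col18a1, and Col9a1 against transgene-free ganglia, were named after their values were seen. A member of the laminin list is counted but not reported by name here. Members, classes, marker and pathway lists were chosen with earlier results of these data known. Alternatives were upper-quartile and RLE normalisation, DESeq2 1.42.0, no filter or at least 10 counts in every library, only the groups compared, a replicate block, terms for depth (20000000 counts) and sex (Ddx3y over 1 CPM), TPM rescaled by TMM factors or without Rn45s, group medians, sums without the highest member and each library left out. Leaving out the 2 libraries highest in lymphocyte and liver markers, and keeping only libraries over 20000000 counts, were added after seeing the data. Depth, from 10692299 counts up, limits the precision of genes with few counts.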

Additional observations from a re-analysis of the deposited data

Results flagged for a closer look

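Within groups of 4 libraries, 78 sets of values from 35 members and the class sums were looked at for a library far from the other 3, and 11 were found. By chance about 1 in 20 such sets stands out.

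Replicate 2 of the Runx1t1 wild-type transgene-free ganglia, the library with lymphocyte and thymocyte markers, stood apart in 3 members. Col12a1 was at 198.2 CPM there and at 11.1 to 28.5 CPM in the other 3, Col6a4 at 39.97 CPM against 0.959 to 1.76 CPM, and Lama1 at 3.382 CPM against 0.480 to 0.741 CPM. Replicate 3 of the same group was high in Col15a1, at 539.8 CPM against 221 to 273.5 CPM, and in Lamc1, at 1016 CPM against 566.5 to 630.2 CPM. That library had the highest summed TPM of all libraries in every class. It was also the highest in fibroblast (1600 TPM), glia (2413 TPM) and adrenal cortex markers (104 TPM), though not in every marker list. The part of these markers was not tested. Without it, tumors were 11.2-fold lower than transgene-free ganglia in fibrillar chains.

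Tumor replicate 4 was high in Col1a1, at 394.3 CPM against 130.9 to 156 CPM, and in Col4a6, at 6.29 CPM against 1.51 to 2.17 CPM. Its summed TPM of fibrillar chains was 522.6 against 180 to 229 in the other tumors, and that of the other collagens was 179.9 against 112 to 123. Tumor replicate 3, which holds liver RNA, was high in Col18a1, at 168.8 CPM against 30.7 to 53.3 CPM. Tumor replicate 1 was high in Col9a2, at 15.1 CPM against 0.113 to 1.68 CPM.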

How the results depend on the processing

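Of 212 recomputed counts and ratios, 208 kept their size by a wide rule. A class ratio was kept if it moved by less than its SD, taken from the spread between libraries. A count of 0 that stayed 0 was kept too. With 1 library left out, the fibrillar fold ranged from 11.2 to 18.6. Of 1287 recomputed values of single genes, 1269 kept their direction and their side of the threshold. Counts of members under the alternatives are given without the share of all genes called. The number of members called in tumors against transgene-free ganglia was 38 (27 with at least 10 counts in every library, where 12271 genes and neither Col9a1 nor Lama1 could be tested, and 39 by DESeq2, 37 of them shared). Leaving out 1 library gave 35 to 41 calls there, 23 to 32 against Runx1t1 wild-type MYCN ganglia and 22 to 29 against those labelled heterozygous. Leaving out 1 of the 2 MYCN ganglia labelled heterozygous leaves a lone library, assumed to vary like the other groups, and libraries over 20000000 counts hold none of this group, so that no value was had. For MYCN against transgene-free ganglia, both Runx1t1 wild-type, the count of 0 became 2 by DESeq2, 0 to 1 with 1 library left out and 1 (Lama1) without the 2 libraries highest in lymphocyte and liver markers (the cause was not tested). Calls that 1 library decides stand beside the results. Col9a3 passed with a term for sex (1.05) and Col4a5 with a term for depth (−1.65) or by DESeq2 (−1.30) in tumors against transgene-free ganglia.

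No pairing by replicate number was seen: of 25 pairs with the same number, 7 had a correlation of deviations over 0.1, and 5 of 16 libraries correlated best with one of their own number. The median correlation was −0.014 in pairs of the same number and −0.021 in the others. Deviations from means of so few libraries are tied to each other, so this check cannot tell whether libraries were paired. With a replicate block, 38 members were called in tumors against transgene-free ganglia, 28 and 30 against Runx1t1 wild-type MYCN ganglia and labelled heterozygous, and 0 between ganglia. These counts too are given without the share of all genes called. Under the replicate block Col9a3 turned from −0.63 to 0.11 between MYCN and transgene-free ganglia labelled heterozygous, passing in neither, and the cause was not tested.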
